A study of Mus musculus with 11 samples.

Results

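The Hsp70 and Hsp110 genes are a family of ATP-driven protein folding chaperones, and 10 of them were followed here across heat shock and YAP/TAZ knockdown in a mouse melanoma line. They were taken by name: Hspa1a, Hspa1b, Hspa1l, Hspa2, Hspa4, Hspa4l, Hspa8, Hspa13, Hspa14 and Hsph1. They made up 10 of the 54686 entries of the gene table, and 10 of 10 were among the 12626 genes that reached 1 FPKM in at least 2 libraries and were tested. FPKM values are fragment numbers divided by transcript length and library size, so levels of different genes are compared per length. Of the 10, Hspa1l passed this minimum through unheated libraries only.

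The study asked how YAP and TAZ, a pair of transcriptional co-activators that work through TEAD factors, bear on the response to heat. B16-OVA cells, a line of C57BL/6J origin made to express ovalbumin, received either siRNAs against both YAP and TAZ or a control siRNA. Starting 48 h after transfection, heated cells spent 1 h at 45 °C and 6 h at 37 °C, so that a single recovery time was sampled. The 4 groups were heated YAP/TAZ siRNA cells (3 libraries), unheated YAP/TAZ siRNA cells (3 libraries), heated control siRNA cells (2 libraries, replicates 1 and 3) and unheated control siRNA cells (3 libraries). For heated cells with control siRNA, no replicate 2 was among the libraries. The siRNAs were a pool given to 1 cell line, so single siRNA sequences cannot be told apart.

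Hsp70 proteins hold exposed hydrophobic stretches of unfolded proteins and release them in a cycle of ATP binding and hydrolysis. J-domain proteins start the hydrolysis, and exchange factors, among them the Hsp110 proteins, let the nucleotide go and the client with it. After heat, heat shock factor 1 binds heat shock elements, inverted repeats of GAA, and drives transcription of the inducible members, while other members are made in unstressed cells. Hspa1a and Hspa1b encode the inducible cytosolic Hsp70, Hspa8 the constitutive one, Hspa1l and Hspa2 forms best known from male germ cells. Hsph1, Hspa4 and Hspa4l encode Hsp110 proteins, Hspa13 a small Hsp70 bound to microsomes, and Hspa14 an Hsp70 that acts at the ribosome.

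Hspa1a and Hspa1b are neighbours with nearly the same sequence, which is why their upstream regions are shown together and why their summed FPKM leads the results. Hspa1a spans 34969190 to 34972156 and Hspa1b 34956436 to 34959238 on the minus strand of chromosome 17 (GRCm38, GENCODE M21), each in 1 exon, with start sites 12918 bases apart. Hspa1l lies between 34972703 and 34979285 on the plus strand, and its start site is 547 bases from that of Hspa1a. The coding sequences of Hspa1a and Hspa1b were 99.4% identical, differing at 11 aligned positions, against 83% for Hspa1a and Hspa1l and 73.9% for Hspa1a and Hspa8. The 250 bases before the start sites of the pair, from RefSeq on GRCm38.p6, were 98.8% identical, with 3 differing positions. Capitals mark the match to a heat shock element pair, GAANNTTC or TTCNNGAA searched on both strands, which begins 104 bases before the start site in each.
Hspa1a, chr17:34972157-34972406, minus strand: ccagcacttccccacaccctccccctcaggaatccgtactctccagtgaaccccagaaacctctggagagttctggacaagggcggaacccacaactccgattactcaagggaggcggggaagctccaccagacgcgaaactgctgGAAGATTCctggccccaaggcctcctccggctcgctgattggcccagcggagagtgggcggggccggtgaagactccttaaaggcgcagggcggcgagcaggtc
Hspa1b, chr17:34959239-34959488, minus strand: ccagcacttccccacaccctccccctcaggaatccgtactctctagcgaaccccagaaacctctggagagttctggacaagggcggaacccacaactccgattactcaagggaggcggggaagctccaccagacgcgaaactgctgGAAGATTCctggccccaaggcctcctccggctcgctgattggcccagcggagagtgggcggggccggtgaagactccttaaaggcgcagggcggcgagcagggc
The Hsph1 window held the only match among the members to a longer form, in which the pair GAANNTTC is followed by NNGAA or the pair TTCNNGAA by NNTTC, again on both strands. It is in capitals below and begins 37 bases after the start site of 1 RefSeq transcript and 16 bases after that of another.
Hsph1, chr5:149636287-149636308, minus strand: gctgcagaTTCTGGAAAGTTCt

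Windows of 300 bases, 250 before to 50 after a start site, were at hand for 8 of the 10 members (9 windows, since Hsph1 had 2). The heat shock element pair was found in 15.1% of 32817 such windows of all genes and the longer form in 0.603%, where each longer match also counts as a pair. Among members, Hspa1a, Hspa1b and Hsph1 held the pair, and Hspa1l, Hspa2, Hspa4, Hspa4l and Hspa14 did not. The TEAD motif GGAATG or its complement CATTCC, present in 14.7% of all windows, was found for Hspa1l alone among the 8, 247 bases before its start site. CCAAT or its complement ATTGG, present in 37.4% of all windows, was found for 6 of the 8, 67 bases before the start site in Hspa1a and Hspa1b. These matches describe letters in the windows, not binding.

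The smallest steps between low values corresponded to 30500000 to 43900000 fragments per library, if 1 step is 1 fragment. Libraries of the same group correlated at 0.977 to 0.984 across genes, and those of different groups at 0.900 to 0.958. Yap1 was at 2.26 to 3.02 FPKM in the 6 YAP/TAZ siRNA libraries and at 5.79 to 15.6 FPKM in the 5 control siRNA libraries, and Wwtr1, which encodes TAZ, at 1.40 to 1.83 FPKM and at 5.37 to 8.47 FPKM, with no overlap. All 8 melanocyte lineage markers passed the minimum, with summed levels of 7206 to 8061 FPKM in heated and 7929 to 8277 FPKM in unheated YAP/TAZ siRNA cells, while there were 6287 to 6533 FPKM in heated and 7064 to 7678 FPKM in unheated control libraries. The heated control libraries were thus lowest. Of these 8 genes, 6 were called higher and 1, Tyrp1, lower under YAP/TAZ siRNA after heat, beside 36.3% and 17.9% of all genes. Without heat 5 were called higher and 2 lower, beside 27.1% and 21.9% of all genes. Marker lists of fibroblasts, macrophages, lymphocytes, endothelial cells and keratinocytes summed to at most 6.77 FPKM in any library. The heated control siRNA libraries had the most genes above 0, 23173 and 23242, against 20000 to 21662 in the others. Their macrophage sums were 6.35 and 6.77 FPKM and their lymphocyte sums 1.89 and 1.92 FPKM, against 1.57 to 3.43 and 0.0437 to 0.365 FPKM elsewhere. Their endothelial sums were 1.28 to 1.63 FPKM, against 0.103 to 0.293 FPKM elsewhere. Fibroblast sums were 1.31 to 1.46 FPKM in heated and 1.93 to 2.10 FPKM in unheated YAP/TAZ siRNA cells, while there were 1.79 to 1.82 FPKM in heated and 3.20 to 3.53 FPKM in unheated control libraries. Of these lists, 2 of 10 macrophage and 5 of 9 lymphocyte genes were at 0 in every library. The part of these differences in the results was not tested.

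The inducible Hsp70 genes rose with heat under both siRNAs and reached a far lower level under YAP/TAZ siRNA. Summed Hspa1a and Hspa1b stood at 130.0, 325 and 148 FPKM in heated YAP/TAZ siRNA libraries, against 4.86, 5.73 and 4.87 FPKM in unheated ones. Under control siRNA the sum was 2506 and 2416 FPKM with heat, against 5.37, 5.13 and 1.70 FPKM without. Every heated library lay above every unheated one, and every heated control library lay above every heated YAP/TAZ siRNA library, while the unheated groups overlapped. Among the heated YAP/TAZ siRNA libraries, replicate 2 was the highest. The means were 201 ± 108 FPKM with heat and 5.15 ± 0.502 FPKM without under YAP/TAZ siRNA (SD, n = 3 each), a 39.0-fold ratio. Under control siRNA they were 2461 ± 63.9 FPKM with heat (SD, n = 2) and 4.07 ± 2.05 FPKM without (SD, n = 3), a 605-fold ratio. The heated YAP/TAZ siRNA mean was thus 8.17% of the heated control mean. Because these are bulk libraries, fewer cells with the induced RNA and less of it in each cell cannot be told apart.

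**Figure D1:**
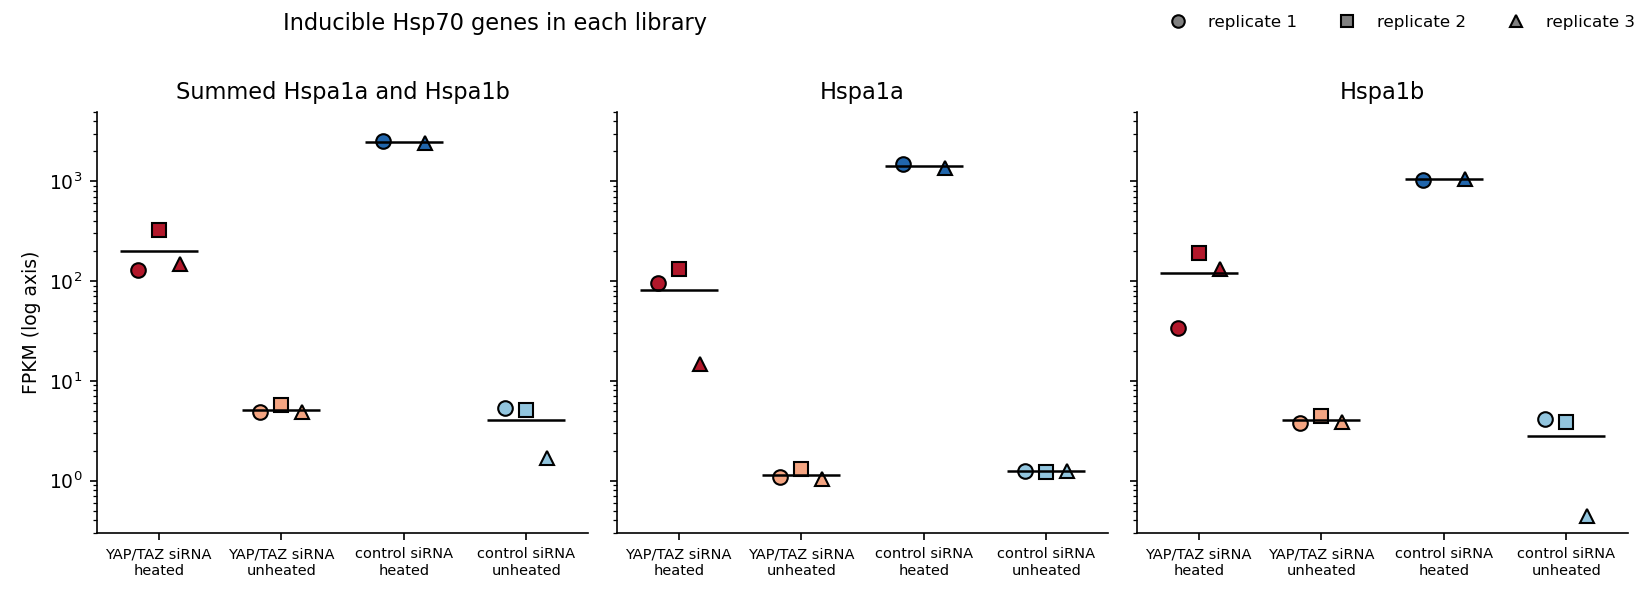
Summed and single FPKM of Hspa1a and Hspa1b on a log axis, 1 point per library, with the marker shape giving the replicate number and the line the group mean. The 3 heated YAP/TAZ siRNA sums lie between 130.0 and 325 FPKM, below the 2 heated control sums at 2416 and 2506 FPKM, and the unheated sums lie between 1.70 and 5.73 FPKM.

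On the scale of log2(FPKM + 1), which understates the fold of low values, the sum rose with heat by 4.92 ± 0.38 under YAP/TAZ siRNA (adjusted p = 2.3e-05, limma; values after ± are standard errors unless marked SD). It rose by 9.03 ± 0.43 under control siRNA (adjusted p = 5.5e-07). The difference between the 2 heat responses, the interaction, was -4.11 ± 0.58 (adjusted p = 6.7e-04). After heat, the sum was lower by a log2 change of -3.73 ± 0.43 under YAP/TAZ siRNA than under control siRNA (adjusted p = 8.9e-05). Without heat the siRNA difference was 0.38, with a 95% interval of -0.49 to 1.24 (adjusted p = 0.453). That interval holds values on both sides of 0. Without heated YAP/TAZ siRNA replicate 2 the heat response under YAP/TAZ siRNA was 4.51 and the interaction -4.52. Without unheated control siRNA replicate 3, where the sum was lowest, the interaction was -3.71. Nothing in the labels says that replicates were separate cultures, so these p-values measure the spread between libraries, which may be technical.

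The split of the sum between Hspa1a and Hspa1b varied widely among the heated YAP/TAZ siRNA libraries. Hspa1a was at 96.4, 133 and 14.7 FPKM in heated YAP/TAZ siRNA libraries, against 1.08, 1.30 and 1.04 FPKM in unheated ones. In heated control libraries it was at 1474 and 1358 FPKM, against 1.25, 1.22 and 1.26 FPKM in unheated ones. It held 74.2%, 40.9% and 9.93% of the sum in the 3 heated YAP/TAZ siRNA libraries, and 58.8% and 56.2% in the 2 heated control libraries. Hspa1b was at 33.6, 192 and 133 FPKM with heat under YAP/TAZ siRNA, against 3.78, 4.43 and 3.83 FPKM without. With control siRNA, Hspa1b reached 1033 and 1058 FPKM after heat, against 4.13, 3.91 and 0.439 FPKM without. The order of the pair thus turned round between replicates of the heated YAP/TAZ siRNA group, and unheated control replicate 3 stood apart in Hspa1b but not in Hspa1a. Of the stretches of 75 bases in the Hspa1a transcript, 54.2% also occurred in transcripts of other genes, nearly all in Hspa1b, so fragments there have no unique source. The values of the single genes are uncertain for that reason.

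Each gene of the pair nevertheless passed the test in the same direction as the sum. With heat, Hspa1a rose by 4.79 ± 0.64 under YAP/TAZ siRNA (adjusted p = 3.7e-04) and by 9.30 ± 0.71 under control siRNA (adjusted p = 7.6e-06). Hspa1b rose by 4.27 ± 0.64 under YAP/TAZ siRNA (adjusted p = 6.4e-04) and by 8.30 ± 0.71 under control siRNA (adjusted p = 1.5e-05). The interaction was -4.52 ± 0.96 for Hspa1a (adjusted p = 0.00570) and -4.04 ± 0.96 for Hspa1b (adjusted p = 0.00965). Leaving out heated YAP/TAZ siRNA replicate 3 moved the Hspa1a interaction to -3.56, and leaving out replicate 1 moved that of Hspa1b to -3.30. Without heat neither gene passed the siRNA test, at -0.07 ± 0.64 for Hspa1a (adjusted p = 0.945) and 0.60 ± 0.64 for Hspa1b (adjusted p = 0.477).

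Hspa1l, the neighbour on the other strand, was low throughout. It was at 0.0108, 0.318 and 0 FPKM in heated YAP/TAZ siRNA libraries, against 1.37, 1.54 and 1.15 FPKM in unheated ones. Control siRNA libraries had 0.245 and 0.111 FPKM with heat, against 1.19, 1.08 and 0 FPKM without. Under YAP/TAZ siRNA the heated and unheated libraries did not overlap, and under control siRNA they did, through the unheated library listed at 0. Since the gene entered the fit only through its unheated libraries, a lower value with heat was favoured by the 1 FPKM minimum, and its fitted changes are given as a description. The heat response was -1.09 under YAP/TAZ siRNA and -0.49 under control siRNA, and the interaction -0.60. These sizes depend on the settings. Under YAP/TAZ siRNA the response was -3.11 with a pseudocount of 0.1 and -2.08 with 1 total per library, and under control siRNA it was -0.86 without unheated control replicate 3. Heated values came from 0 to 25 steps and unheated ones from 0 to 154, and 7.09% of its 75-base stretches also occurred in Hspa1a. The library with Hspa1l listed at 0 among the unheated ones was the same in which Hspa1b was low.

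Predicted loci overlap Hspa1l and Hspa1a. Gm10501, on the strand opposite Hspa1l, was at 60.1 FPKM in heated control replicate 3 and 1.46 FPKM in replicate 1, against 0.0327 to 1.31 FPKM in the other libraries. Gm20481, opposite Hspa1a, was at 7.81 FPKM in heated control replicate 1 and 1.44 FPKM in replicate 3, against at most 0.512 FPKM elsewhere. Whether the counting used strand is not given in the sources used here, so fragments of overlapping loci cannot be told apart.

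Hsph1, the inducible Hsp110 gene (chromosome 5, 149614287 to 149636376, minus strand), rose with heat under both siRNAs and was lower under YAP/TAZ siRNA with and without heat. It was at 48.8, 56.4 and 48.3 FPKM in heated YAP/TAZ siRNA libraries, against 20.6, 21.5 and 19.8 FPKM in unheated ones. Control siRNA libraries had 177 and 158 FPKM with heat, against 44.0, 46.6 and 45.1 FPKM without. No 2 of the 4 groups overlapped, and the heated YAP/TAZ siRNA level was just above the unheated control level. Heat multiplied the mean 2.48-fold under YAP/TAZ siRNA and 3.70-fold under control siRNA. The log2 heat response was 1.27 ± 0.07 under YAP/TAZ siRNA (adjusted p = 3.4e-06) and 1.86 ± 0.08 under control siRNA (adjusted p = 2.7e-07). The interaction was -0.60 ± 0.10 (adjusted p = 0.00203). The YAP/TAZ siRNA mean was 30.5% of the control mean after heat, a log2 change of -1.69 ± 0.08 (adjusted p = 5.6e-07), and 45.6% of it without heat, a log2 change of -1.10 ± 0.07 (adjusted p = 2.4e-06). The lower level under YAP/TAZ siRNA was thus present in unheated cells too.

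The other Hsp110 genes moved less. Hspa4l (chromosome 3, 40744495 to 40796103, plus strand) was at 2.32, 2.60 and 2.05 FPKM in heated YAP/TAZ siRNA libraries, against 2.00, 2.22 and 1.87 FPKM in unheated ones. In control siRNA libraries it was at 3.82 and 3.25 FPKM with heat, against 2.09, 2.09 and 1.86 FPKM without. The heated control libraries were above all others. Its heat response was 0.59 ± 0.09 under control siRNA (adjusted p = 6.4e-04) and 0.13 ± 0.08 under YAP/TAZ siRNA (adjusted p = 0.213), which was called at 0.29 after quantile normalization (adjusted p = 0.0117). The interaction of -0.46 ± 0.12 (adjusted p = 0.0182) became -0.37 without heated control replicate 1 (adjusted p = 0.0864). After heat it was lower under YAP/TAZ siRNA by a log2 change of -0.45 ± 0.09 (adjusted p = 0.00277).

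Hspa4 (chromosome 11, 53259814 to 53300457, minus strand) was an abundant Hsp110 gene with small differences. Its level was 98.8, 98.2 and 92.9 FPKM in heated YAP/TAZ siRNA libraries, against 77.9, 86.1 and 85.1 FPKM in unheated ones. With control siRNA there were 107 and 116 FPKM with heat, against 101, 108 and 109.7 FPKM without. The YAP/TAZ siRNA libraries were below the control siRNA libraries in each heat state. Without heat it fell with YAP/TAZ siRNA by 0.35 ± 0.06 on the log2 scale (adjusted p = 7.3e-04), a change of -0.19 after quantile normalization (adjusted p = 0.0321). The change after heat, -0.20 ± 0.06 (adjusted p = 0.0220), was no longer called without heated control replicate 3 (-0.14) or heated YAP/TAZ siRNA replicate 3 (-0.17), and was -0.37 with median-of-ratios scaling and -0.36 after quantile normalization. It rose with heat under YAP/TAZ siRNA by 0.22 ± 0.06 (adjusted p = 0.0107), a value that was -0.07 after quantile normalization and 0.05 with 1 total per library (adjusted p = 0.463). Under control siRNA the heat response was 0.07 ± 0.06 (adjusted p = 0.378), but it was called at 0.28 with median-of-ratios scaling (adjusted p = 0.00351) and was -0.0025 with 1 total per library, and the interaction 0.15 ± 0.08 (adjusted p = 0.206).

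Hspa8 (chromosome 9, 40800984 to 40810087, plus strand), the constitutive Hsp70 that also strips clathrin from vesicles, had the highest mean level of the members in every group except heated control cells. It was at 474, 449 and 488 FPKM in heated YAP/TAZ siRNA libraries, against 296, 284 and 297 FPKM in unheated ones. In control siRNA libraries it was at 529 and 516 FPKM with heat, against 489, 505 and 516 FPKM without. The unheated YAP/TAZ siRNA libraries stood below all others, and heated and unheated control libraries met at 516 FPKM. Its YAP/TAZ siRNA mean was 58.1% of the control mean without heat, a log2 change of -0.78 ± 0.04 (adjusted p = 1.5e-06). After heat it was 90% of the control mean, a log2 change of -0.15 ± 0.05 (adjusted p = 0.0250) that was lost on leaving out heated YAP/TAZ siRNA replicate 1 or 2 (-0.16 and -0.12) or heated control replicate 1 or 3 (-0.14 and -0.17). Under the 3 other scalings that change was called at -0.24 to -0.32. With no filter that change was not called (-0.15, adjusted p = 0.0575).

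With heat Hspa8 rose under YAP/TAZ siRNA by 0.68 ± 0.04 (adjusted p = 8.8e-06), a value that was 0.20 after quantile normalization (adjusted p = 0.00412). The response under control siRNA was 0.05 ± 0.05, with a 95% interval of -0.06 to 0.17 (adjusted p = 0.388). The response under control siRNA also depended on the scaling, at 0.26 with median-of-ratios scaling (adjusted p = 0.00445) and -0.18 after quantile normalization (adjusted p = 0.0101). The interaction was 0.63 ± 0.07 (adjusted p = 1.4e-04), and 0.38 after quantile normalization (adjusted p = 0.00157), opposite in sign to that of the Hspa1 pair and Hsph1. Of its 75-base stretches, 68.0% also occurred in transcripts of 9 other genes, chiefly Gm15459. That locus was at 74.4, 142 and 166 FPKM in heated YAP/TAZ siRNA libraries, against 77.1, 96.2 and 101 FPKM in unheated ones. It was at 209 and 219.8 FPKM in heated control libraries, against 130.1, 178 and 177 FPKM in unheated ones. The Hspa8 values are uncertain to that extent.

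Hspa2 (chromosome 12, 76404176 to 76406938, plus strand) was the member with higher values under YAP/TAZ siRNA in both heat states. It was at 2.51, 2.32 and 2.57 FPKM in heated YAP/TAZ siRNA libraries, against 3.86, 4.37 and 4.10 FPKM in unheated ones. Under control siRNA its level was 1.33 and 1.52 FPKM with heat, against 1.94, 1.54 and 2.23 FPKM without. Its YAP/TAZ siRNA mean was 1.73 times the control mean after heat, a log2 change of 0.52 ± 0.10 (adjusted p = 0.00198), and 2.16 times without heat, a log2 change of 0.82 ± 0.09 (adjusted p = 6.4e-05). The gene fell with heat under YAP/TAZ siRNA by 0.56 ± 0.09 on the log2 scale (adjusted p = 9.5e-04). The heat response under control siRNA was -0.25 ± 0.10 (adjusted p = 0.0624), and the interaction -0.30 ± 0.13 (adjusted p = 0.104). Without unheated control replicate 2 the heat response under control siRNA was called at -0.35 (adjusted p = 0.0113), as it was at -0.40 with 1 total per library (adjusted p = 0.0232), and without replicate 3 the interaction was called at -0.38 (adjusted p = 0.0433).

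Hspa14 (chromosome 2, 3488850 to 3512814, minus strand) had a called interaction, and the size of each heat response depended on the scaling. It was at 22.4, 20.2 and 21.4 FPKM in heated YAP/TAZ siRNA libraries, against 17.5, 17.9 and 20.0 FPKM in unheated ones. Control siRNA libraries had 17.5 and 18.9 FPKM with heat, against 23.2, 23.9 and 25.7 FPKM without. The response was 0.20 ± 0.07 under YAP/TAZ siRNA (adjusted p = 0.0311) and -0.40 ± 0.07 under control siRNA (adjusted p = 0.00165), with an interaction of 0.60 ± 0.10 (adjusted p = 0.00163). The rise under YAP/TAZ siRNA was not called with 1 total per library (0.042, adjusted p = 0.537), with no filter (adjusted p = 0.0543) or without any 1 of 4 libraries (0.16 to 0.19). The fall under control siRNA was -0.20 with median-of-ratios scaling (adjusted p = 0.0534) and -0.26 after quantile normalization (adjusted p = 0.0109). Without heat it fell with YAP/TAZ siRNA by 0.38 ± 0.07 on the log2 scale (adjusted p = 0.00114). After heat the siRNA difference was 0.22 ± 0.07 (adjusted p = 0.0294), and was called under none of the 3 other scalings. Gm45902, an overlapping locus on the same strand that holds 14.4% of its 75-base stretches, was at 4.63 and 4.24 FPKM in heated control libraries and at 1.44 to 2.85 FPKM in the others.

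Hspa13 (chromosome 16, 75745431 to 75767104, minus strand) was at 5.45, 5.44 and 4.94 FPKM in heated YAP/TAZ siRNA libraries, against 7.39, 6.83 and 6.70 FPKM in unheated ones. Control siRNA libraries had 6.05 and 6.03 FPKM with heat, against 6.59, 6.48 and 5.51 FPKM without. The heated YAP/TAZ siRNA libraries were the lowest. It fell with heat under YAP/TAZ siRNA by 0.34 ± 0.07 on the log2 scale (adjusted p = 0.00327), a change of -0.20 after quantile normalization and -0.54 with 1 total per library, while the response under control siRNA was -0.03 ± 0.08 (adjusted p = 0.792) and turned to 0.15 and 0.17 with median-of-ratios scaling and quantile normalization. Its interaction of -0.32 ± 0.11 (adjusted p = 0.0401) was lost on leaving out any 1 of 7 libraries, at -0.36 to -0.25 over the 11 such fits. With no filter the interaction was not called either (adjusted p = 0.0596). After heat the siRNA difference was -0.17 ± 0.08 (adjusted p = 0.101). That difference was called at -0.31 with median-of-ratios scaling (adjusted p = 0.00808) and at -0.27 after quantile normalization (adjusted p = 0.0130). Without heat the siRNA difference was 0.15 ± 0.07 (adjusted p = 0.107).

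**Figure D2:**
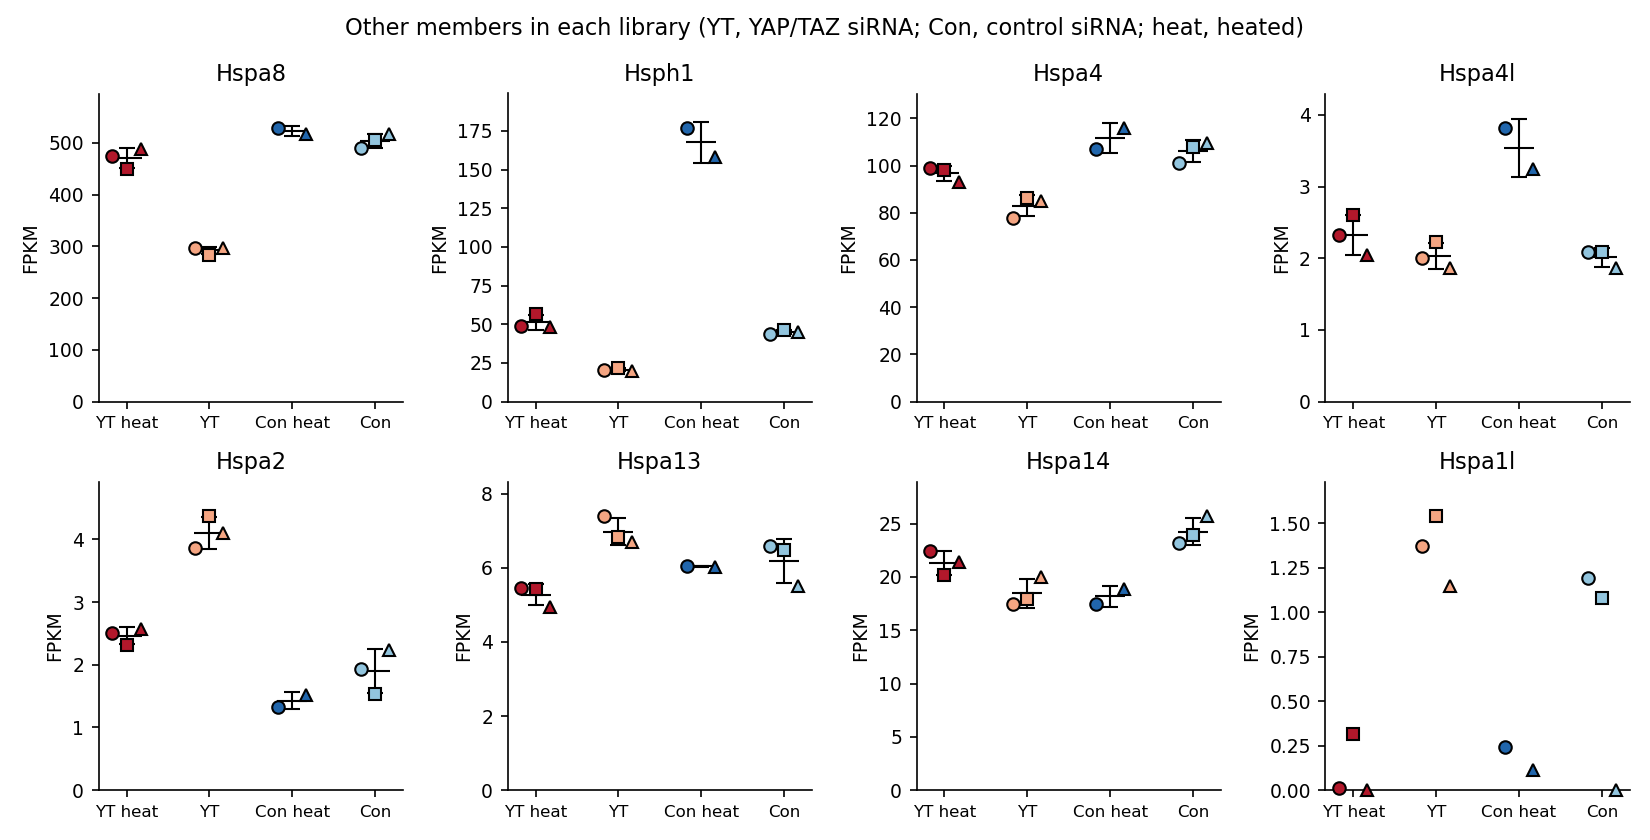
FPKM of the other 8 members in each library, on linear axes from 0, with circles, squares and triangles for replicates 1, 2 and 3 and bars for mean ± SD (none for Hspa1l, which is listed at 0 in 2 libraries). Hspa8 is lowest in unheated YAP/TAZ siRNA libraries (284 to 297 FPKM), Hsph1 is highest in heated control libraries (158 and 177 FPKM), and Hspa2 is highest in unheated YAP/TAZ siRNA libraries (3.86 to 4.37 FPKM).

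Counted over the 10 members, heat under YAP/TAZ siRNA raised 6 (Hspa1a, Hspa1b, Hspa4, Hspa8, Hspa14 and Hsph1), lowered 2 (Hspa2 and Hspa13) and left Hspa4l uncalled. Hspa1l was also called lower, which makes 3, but it passed the minimum only through unheated libraries and is not read as a change. Hspa1a and Hspa1b, which share much of their sequence, are counted as 2 members here and below. Of all genes tested, 18.6% rose and 31.7% fell in that comparison, 50.3% in all. Heat under control siRNA raised 4 (Hspa1a, Hspa1b, Hspa4l and Hsph1) and lowered Hspa14, where 12.4% of all genes rose and 36.9% fell, 49.2% in all, so that the 5 called members are near the background in total. The member medians were 0.21 under YAP/TAZ siRNA and 0.06 under control siRNA, and the medians of all genes -0.09 and -0.16. These member medians include Hspa1l, whose values the minimum favoured to be lower with heat. The share of higher among called genes depended on the scaling. It was 37.0% under YAP/TAZ siRNA and 25.1% under control siRNA as deposited, 48.9% and 50.6% with median-of-ratios scaling, 48.7% and 41.8% after quantile normalization, and 19.9% and 19.4% with 1 total per library. In the last of these settings the pseudocount of 1 also weighed less. Relative to the median of all genes, the Hspa8 response was 0.77 under YAP/TAZ siRNA and 0.22 under control siRNA.

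The interaction was positive for 2 called members (Hspa8 and Hspa14) and negative for 5 (Hspa1a, Hspa1b, Hspa4l, Hspa13 and Hsph1), where 24.6% and 13.4% of all genes were called in these directions, 37.9% in all. The member median was -0.39 and the median of all genes 0.11. This member median and those below again include Hspa1l. YAP/TAZ siRNA after heat raised 2 members (Hspa2 and Hspa14) and lowered 6 (Hspa1a, Hspa1b, Hspa4, Hspa4l, Hspa8 and Hsph1), against backgrounds of 36.3% higher and 17.9% lower, 54.3% in all. Medians were -0.18 for members and 0.13 for all genes. Without heat the siRNA pool raised Hspa2 alone of the 10 and lowered 4 (Hspa4, Hspa8, Hspa14 and Hsph1), against backgrounds of 27.1% higher and 21.9% lower, 49.0% in all, so that 5 of 10 members is close to the background. Medians there were -0.03 for members and 0.02 for all genes. Among called genes, the share of higher ones was 64.7% for the interaction and 66.9% after heat as deposited, and 48.0% and 48.9% with median-of-ratios scaling. After quantile normalization it was 55.8% for the siRNA comparison after heat. These comparisons share libraries, so their counts are set side by side and are not independent. Nor are Hspa1a and Hspa1b independent members within a count, since they share much of their sequence.

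**Figure D3:**
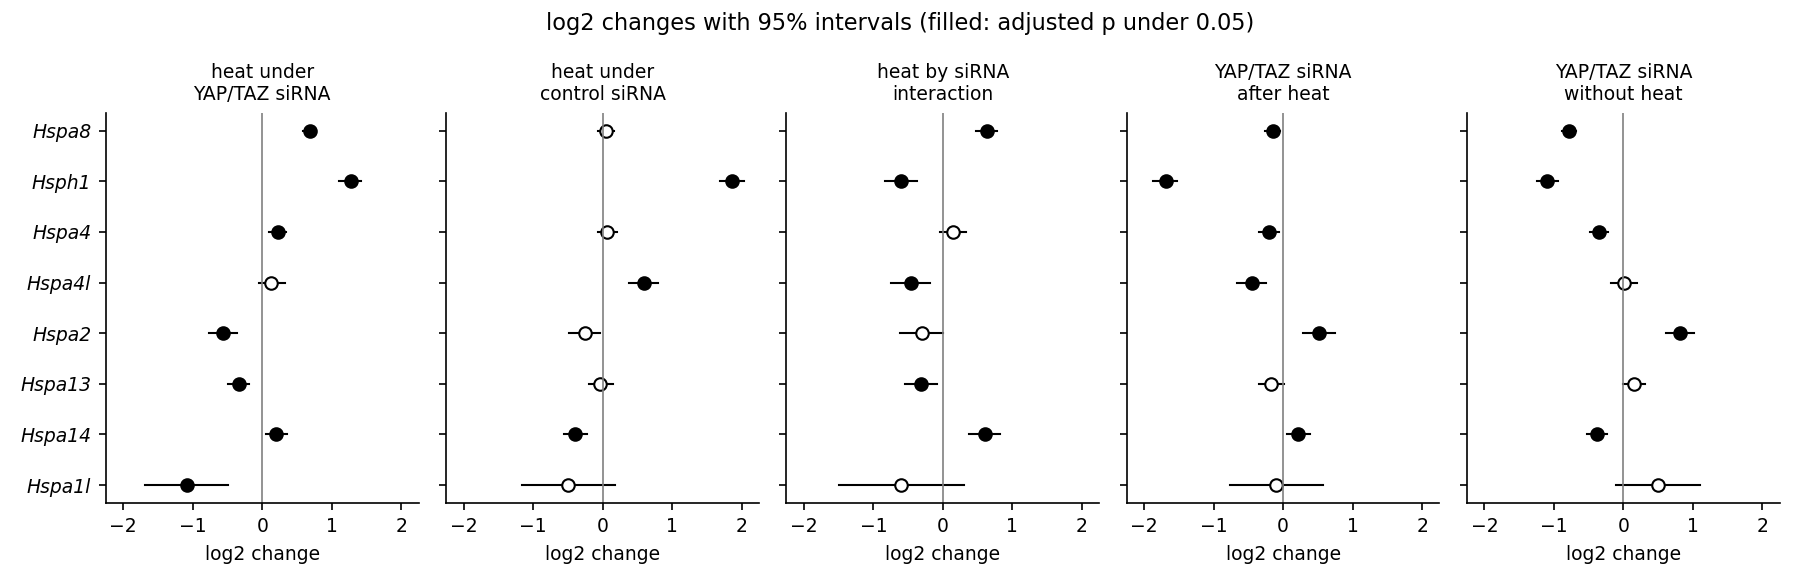
log2 changes of the 8 members outside the Hspa1 pair in the 5 comparisons, as points with 95% intervals from limma, filled where the adjusted p was under 0.05. Hsph1 lies right of 0 for heat under both siRNAs (1.27 and 1.86), and Hspa8 lies right of 0 for heat under YAP/TAZ siRNA (0.68) and near 0 under control siRNA (0.05).

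Added up, the 10 genes reached 784, 959 and 808 FPKM in heated YAP/TAZ siRNA libraries, against 432, 429.9 and 440.2 FPKM in unheated ones. Control siRNA libraries had 3348 and 3236 FPKM with heat, against 674, 699 and 707 FPKM without. Heat thus went with an added 417 FPKM under YAP/TAZ siRNA and 2598 FPKM under control siRNA, of which the Hspa1 pair made up 196 and 2457 FPKM. For the other 8 members together the added amount was 221 FPKM under YAP/TAZ siRNA and 141 FPKM under control siRNA. Their sum was 649 ± 13.6 FPKM in heated YAP/TAZ siRNA cells and 831 ± 15.7 FPKM in heated control cells (SD, n = 3 and 2).

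The makeup of the family differed accordingly. The Hspa1 pair held 16.6%, 33.9% and 18.3% of the summed FPKM in heated YAP/TAZ siRNA libraries, against 1.12%, 1.33% and 1.11% in unheated ones. It held 74.9% and 74.7% in heated control libraries, against 0.797%, 0.733% and 0.240% in unheated ones. Hspa8 held 46.8% to 60.4% in heated YAP/TAZ siRNA libraries, against 66.0% to 68.6% in unheated ones, and 15.8% and 15.9% in heated control libraries, against 72.2% to 72.9% in unheated ones. The 10 genes together took 0.224% to 0.282% of all FPKM in heated YAP/TAZ siRNA libraries and 0.975% and 1.03% in heated control libraries.

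**Figure D4:**
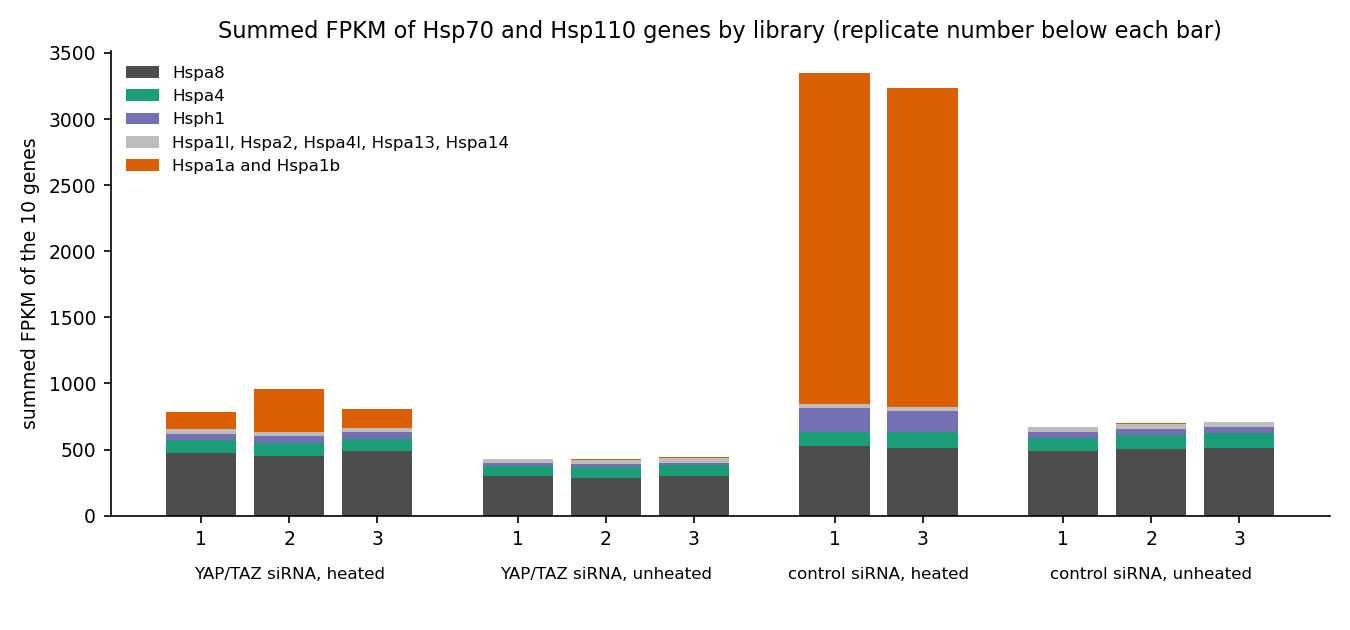
Summed FPKM of the 10 genes as 1 stacked bar per library, split into Hspa8, Hspa4, Hsph1, 5 low members and the Hspa1 pair. The heated control bars reach 3236 and 3348 FPKM, of which the Hspa1 pair is 74.7% and 74.9%, and the heated YAP/TAZ siRNA bars reach 784 to 959 FPKM.

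By level, the order in heated YAP/TAZ siRNA cells was Hspa8, the Hspa1 sum, Hspa4, Hsph1, Hspa14, Hspa13, then Hspa2 and Hspa4l, whose ranges overlapped, and Hspa1l. In unheated YAP/TAZ siRNA cells it was Hspa8, Hspa4, Hsph1 and Hspa14 with overlapping ranges, Hspa13, the Hspa1 sum, Hspa2, Hspa4l and Hspa1l. Heated control cells had the Hspa1 sum first, then Hspa8, Hsph1, Hspa4, Hspa14, Hspa13, Hspa4l, Hspa2 and Hspa1l. In unheated control cells the order was Hspa8, Hspa4, Hsph1, Hspa14 and Hspa13, followed by the Hspa1 sum, Hspa4l and Hspa2 with overlapping ranges, and Hspa1l.

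Genes that work with Hsp70 were counted from lists of J-domain proteins, exchange factors, adaptors, heat shock factors and further Hsp70-related genes. The 3 of each list with the smallest p in the interaction are named. Of 9 J-domain genes tested, the interaction was positive for 3, negative for 2 and not called for 4, beside 24.6% higher, 13.4% lower and 37.9% in all among all genes tested. The counts of the other lists are set against the same shares. Dnajb1, the main stress-inducible J-domain partner of Hsp70, averaged 107 FPKM with heat against 20.2 FPKM without under YAP/TAZ siRNA, and 742 FPKM against 24.5 FPKM under control siRNA. Its interaction was -2.51 ± 0.12 (adjusted p = 3.3e-06). Dnajb4, a related J-domain gene, averaged 2.78 FPKM with heat against 1.92 FPKM without under YAP/TAZ siRNA, and 9.55 FPKM against 2.13 FPKM under control siRNA, with an interaction of -1.39 ± 0.24 (adjusted p = 0.00191). Dnaja1, a J-domain gene of the type I class, had a positive interaction of 0.28 ± 0.08 (adjusted p = 0.0217) that was not called under any of the 3 other scalings or without heated control replicate 3 (0.26).

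Of 7 exchange factor genes, the interaction was positive for 1, negative for 1 and not called for 5. Among all genes 37.9% were called, so for a list of 7 this count is close to the background. Bag3, which couples Hsp70 to selective autophagy, averaged 95.5 FPKM with heat against 23.6 FPKM without under YAP/TAZ siRNA, and 249 FPKM against 23.3 FPKM under control siRNA. Its interaction was -1.40 ± 0.11 (adjusted p = 3.0e-05). Bag2, an inhibitor of the ubiquitin ligase Stub1, was at 0.50 ± 0.09 (adjusted p = 0.00199) and the exchange factor Hspbp1 at 0.26 ± 0.10 (adjusted p = 0.0625), a value called without unheated control replicate 2 (0.31, adjusted p = 0.0408). Of 7 adaptor genes, 4 had a positive and 1 a negative interaction and 2 were not called, beside 24.6% and 13.4% of all genes. Among these tetratricopeptide repeat proteins, Ttc4 was at 0.60 ± 0.07 (adjusted p = 3.1e-04), Tomm34 at 0.35 ± 0.06 (adjusted p = 0.00151) and Ttc1 at 0.49 ± 0.12 (adjusted p = 0.00967).

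Of 4 genes for heat shock factors and their binding protein Hsbp1, the interaction was positive for Hsf1 (0.41 ± 0.08, adjusted p = 0.00389), negative for Hsf2 (-0.34 ± 0.08, adjusted p = 0.00839) and not called for 2, among them Hsf4 (0.15 ± 0.10, adjusted p = 0.274). Hsf1, the factor that drives the heat shock response, averaged 4.89 FPKM in heated YAP/TAZ siRNA cells against 3.98 FPKM in unheated ones, and 5.51 FPKM in heated control cells against 6.31 FPKM in unheated ones. Its RNA was 88.7% of the control level after heat, a log2 change of -0.15 ± 0.06 that was not called (adjusted p = 0.0632). Without heat it was 63.1% of the control level, a called change of -0.55 ± 0.05 (adjusted p = 2.9e-05). Of 4 tested further Hsp70-related genes (Hspa5, Hspa9, Hyou1 and Hspa12b), 2 had a positive interaction and 2 were not called. The shares among all genes were 24.6% positive and 37.9% called. Hspa12b was at 0.62 ± 0.11 (adjusted p = 0.00218) and Hyou1, an exchange factor of the endoplasmic reticulum, at 0.39 ± 0.10 (adjusted p = 0.0120), which was not called under any of the 3 other scalings. Hspa5, the main Hsp70 of that compartment, was at 0.57 ± 0.23 (adjusted p = 0.0798). Its level in heated YAP/TAZ siRNA replicate 2 was 110.1 FPKM, against 68.8 and 69.1 FPKM in replicates 1 and 3, and leaving out any 1 of these 3 libraries gave a called value (0.34 to 0.68).

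The genes most alike in pattern were ranked by the root mean square difference of centred group means over the 4 groups, on the log2(FPKM + 1) scale. Closest to the Hspa1 sum were Hspb1 (0.69), which encodes a small heat shock protein, Hsp25-ps1 (1.10), Dnajb1 (1.73), Atf3 (2.18) and Jun (2.20). The last of these were nearest by rank only, and their patterns differed from that of the sum. Atf3 averaged 6.17 and 3.97 FPKM with and without heat under YAP/TAZ siRNA, and 65.1 and 1.42 FPKM under control siRNA. For Jun these means were 135 and 27.2 FPKM, and 247 and 16 FPKM. Hsp25-ps1 carries a pseudogene symbol. It averaged 15.3 and 269 FPKM in heated YAP/TAZ siRNA and heated control cells, where Hspb1 averaged 175 and 3309 FPKM. Whether the 2 share fragments was not tested. Closest to Hsph1 were Hsp90aa1 (0.12), the inducible cytosolic Hsp90 gene, Spata2 (0.21), Fos, Cryab and Syf2 (0.26 each). Closest to Hspa8 were Eif2s1 (0.02), Npm1 (0.03), Lyar (0.03), Uchl5 (0.05) and S100a10 (0.06). Hsp90aa1 averaged 525 FPKM in heated and 249.9 FPKM in unheated YAP/TAZ siRNA cells, and 1603 FPKM in heated and 525 FPKM in unheated control cells. Npm1 averaged 268 and 159 FPKM under YAP/TAZ siRNA, with and without heat, and 290.2 and 276 FPKM under control siRNA. The sum of the Hspa1 pair lay farther from its nearest genes than Hsph1 and Hspa8 did from theirs. This distance is not scaled by the size of the changes, so larger changes can give larger distances. The heat response under control siRNA was 9.03 for the sum, 1.86 for Hsph1 and 0.05 for Hspa8.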

How the data were processed

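RNA from 11 libraries was measured by sequencing after Trizol extraction and a NEBNext Ultra preparation, per the labels' protocols. The authors deposited FPKM values in 1 table of genes. Per the submitters' processing notes, the build was GRCm38 and the tools included StringTie, HISAT2, Trimmomatic 0.36, SAMtools and DESeq2. The sources used here do not give settings, annotation release or strandedness. Reads could not be recovered from the FPKM values, so no count model was used. Libraries were grouped by the labels.

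A single limma fit (limma 3.58.1 under R 4.3.3, moderated with an intensity trend, 7 residual degrees of freedom) was made on log2(FPKM + 1) for genes that reached 1 FPKM in 2 or more libraries. It had 1 mean per group and no covariate. Benjamini-Hochberg adjustment ran over 12626 genes in each of 5 comparisons, and a gene was called where its adjusted p was under 0.05. For the Hspa1 sum, 1 summed row replaced the 2 genes in an otherwise identical fit. The fit was tested on simulated data. The scripts used Python 3.11.15, numpy 2.4.6, pandas 2.3.3, matplotlib 3.10.9 and Biopython 1.88.

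The step between low FPKM values gave 30500000 to 43900000 fragments per library, if 1 step is 1 fragment. Positions, transcripts and stretches of 75 bases came from GENCODE M21, and windows around start sites from RefSeq, GRCm38.p6. Coding sequences were taken as the longest open reading frame of the longest coding transcript.

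Named genes were the members, Yap1 and Wwtr1, the 3 genes of each partner list with the smallest p in the interaction, the 5 genes most alike to the Hspa1 sum, Hsph1 and Hspa8 (predicted genes left out), and loci that overlap members or share their sequence. The members and the lists were chosen with earlier results of these data known. Alternatives were a pseudocount of 0.1, no filter, a filter at 5 FPKM, median-of-ratios scaling, quantile normalization, 1 total per library, a replicate block and leaving out each of the 11 libraries.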

Additional observations from a re-analysis of the deposited data

Results flagged for a closer look

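The heat response under YAP/TAZ siRNA differed from that under control siRNA by a called interaction for the Hspa1 sum and 7 members. Among all genes tested, 37.9% had a called interaction. The 7 include Hspa1a and Hspa1b, which share much of their sequence and also make up the sum. On the log2(FPKM + 1) scale, the response under YAP/TAZ siRNA minus that under control siRNA was -4.11 for summed Hspa1a and Hspa1b, -4.52 for Hspa1a and -4.04 for Hspa1b. It was -0.60 for Hsph1, -0.46 for Hspa4l and -0.32 for Hspa13. For Hspa8 it was 0.63 and for Hspa14 0.60. Of these, the interactions of Hspa13 and Hspa4l were lost on leaving out single libraries, and that of Hspa13 also with no filter. The others were called under all alternatives run.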

How the results depend on the processing

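Over 18 alternatives, 918 of 975 recomputed values of the members and the Hspa1 sum kept their direction and their side of the threshold, 30 lost a call, 11 gained one and 16 turned in sign. The called values of the Hspa1 sum were called with the same sign in all of them. The causes of the changes below were not tested, except that the filter at 5 FPKM removed Hspa1l, Hspa2 and Hspa4l.

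Turned values were as follows. Quantile normalization gave -0.07 for Hspa4 and heat under YAP/TAZ siRNA, -0.18 for Hspa8 and 0.17 for Hspa13 and heat under control siRNA, -0.17 for the Hspa4 interaction, 0.043 for Hspa1l and YAP/TAZ siRNA after heat, and -0.11 for Hspa4l and YAP/TAZ siRNA without heat. Median-of-ratios scaling gave 0.15 for Hspa13 and heat under control siRNA and -0.022 for Hspa4l and YAP/TAZ siRNA without heat. With 1 total per library, heat under control siRNA gave -0.0025 for Hspa4 and -0.02 for Hspa8. Over the fits that left out 1 library, heat under control siRNA ranged from -0.10 to 0.012 for Hspa13 (0.012 and 0.002 without unheated control replicate 1 and 2). YAP/TAZ siRNA without heat ranged from -0.026 to 0.59 for the Hspa1 sum and from -0.0033 to 0.91 for Hspa1b (lowest without unheated control replicate 3), and from -0.038 to 0.044 for Hspa4l (-0.038 without unheated YAP/TAZ siRNA replicate 2 and -0.03 without unheated control replicate 3).

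Counts of called members moved by over 1.5 times as follows. For heat under YAP/TAZ siRNA, 1 member was lower with the filter at 5 FPKM, against 3. For heat under control siRNA, 0 were lower under median-of-ratios scaling and 2 under 1 total per library, the replicate block or quantile normalization, against 1, and 1 to 2 on leaving out a library (2 without unheated control replicate 2 or 3). For the interaction, 3 to 5 were lower on leaving out a library (3 without heated control replicate 1). For YAP/TAZ siRNA after heat, 1 was higher with the filter at 5 FPKM and with each of the 3 scalings, against 2, and 1 to 2 on leaving out a library (1 without heated YAP/TAZ siRNA replicate 1 or 3 or heated control replicate 1). Without heat, 0 were higher with the filter at 5 FPKM, against 1.

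Scaling moved the median of all genes for heat under control siRNA to 0.01 (median of ratios) and -0.26 (1 total, where the pseudocount also weighed less), against -0.16 as deposited. Whether replicate numbers pair the samples was not settled here. Of 15 same-numbered pairs, 3 had correlated deviations over 0.1 (range -0.110 to 0.134), and 5 of 11 libraries correlated best with one of their own number. With the replicate block, Hspa2 was called for heat under control siRNA (-0.28, adjusted p = 0.0449), Hspa13 for YAP/TAZ siRNA after heat (-0.18, adjusted p = 0.0474) and Hspbp1 for the interaction (0.29, adjusted p = 0.0113). The Hspa1 interaction was -4.33, and 3385 genes were called higher and 1909 lower in the interaction, against 3102 and 1689. No counts came with the FPKM values, so the precision of low genes such as Hspa1l is not known.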
